A study of Mus musculus with 6 samples.

Results

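Glycolysis and the targets of the hypoxia-inducible factors (HIFs) were followed through 35 genes in MC3T3-E1 osteoblasts (OBs) stimulated with ascorbic acid (AA). The genes were taken from a list of names and sorted by role into 1 glucose transporter, 14 glycolytic enzymes, 4 enzymes that set fructose 2,6-bisphosphate, 4 lactate dehydrogenases and lactate transporters, 4 pyruvate dehydrogenase kinases and 8 other HIF targets. The Affymetrix array reads each transcript through probe sets, groups of short probes, and 31 of the 35 genes had a probe set annotated to no other gene, among 18193 genes of which this was true. No probe set was listed for the glycolytic enzymes Gpi1 and Eno1 or for Pfkfb1. The 3 probe sets of the mitophagy receptor Bnip3l were annotated also to a pseudogene, Bnip3l-ps. No value is given for these 4 genes. Each of the other genes was read by the probe set with the highest mean over the 6 arrays.

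The experiment compared 3 AA cultures with 3 control cultures of subclone 4 of MC3T3-E1, a line from mouse calvaria that becomes osteoblastic and deposits collagen when AA is supplied. AA cultures had received AA for 5 days at 50 µg, a dose for which the labels give no volume and the methods a volume of 1 ml, and control cultures were kept for the same time without it. Both were grown in 6-well plates in AA-free medium that was changed every 2 days, and RNA of the whole culture was hybridized to an array of its own. The sources describe wells in triplicate as well as experiments in triplicate, so the p-values measure the spread between these RNA samples, which may be technical. The deposited values are linear signals. Fold changes below are AA over control, from log2 signals made comparable between arrays by quantile normalization, and a gene passed where its adjusted p from limma, taken over 45037 probe sets, was under 0.05.

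Of the 45037 probe sets tested, AA cultures had 1219 that passed as higher and 1124 as lower. Centring each array on its median instead gave 842 higher and 1291 lower, with the median change of all probe sets at -0.05 on the log2 scale. Of 14 osteoblast markers 10 were measured, all above the median signal of 16.0, and Ifitm5, Ibsp, Alpl and Pth1r were higher in AA cultures, the last with overlapping groups and not with no replicate block (adjusted p = 0.118). The endothelial markers all lay at or below the median signal. Of 5 macrophage markers Csf1r was higher, with a summed signal of 402 to 466 in AA cultures and 375 to 465 in control cultures. Of 5 chondrocyte markers Col2a1 was higher, with means of 306 in AA cultures and 138 in control cultures. The sums of the 5 were 436 to 539 in AA cultures and 338 to 402 in control cultures. Their log2 fold changes were positive for 2 and negative for 3, with a median of -0.07. Sox9 was at -0.33 (adjusted p = 0.283), with every AA array below every control array. Of the 4 adipocyte, 5 endothelial and 5 skeletal muscle markers 0 passed by limma, and 0 did at an unadjusted p under 0.05 or by the methods' t-test at that level. All 11 measured proliferation genes had negative log2 fold changes with a median of -0.28, their summed signal was 11629 to 15417 in AA cultures and 15042 to 15529 in control cultures, and Mki67 passed (-0.46, adjusted p = 0.0305), though not with median centring (0.0603) or without replicate 1 (0.101) or 2 (0.153). As a measure of intact RNA, the Gapdh control transcript gave a 3'/5' ratio of 0.791 to 0.799 on AA arrays and of 0.807 to 0.920 on control arrays, with the highest on control replicate 3. The ratio of the actin control transcript was 1.35 to 1.45 on AA arrays and 1.39 to 1.79 on control arrays, again highest on control replicate 3.

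In glycolysis, glucose is taken up, phosphorylated and broken down to pyruvate with a net gain of ATP, and pyruvate either becomes lactate, which is exported, or enters mitochondria through the pyruvate dehydrogenase complex. HIF, a pair of an oxygen-regulated alpha subunit and ARNT, binds a short DNA core and raises transcription of many of these genes when oxygen is low, together with genes of blood vessel growth, pH control, mitophagy and growth restraint. The prolyl hydroxylases that mark the alpha subunit for destruction belong to the same enzyme family as the collagen prolyl hydroxylases, and both use iron, 2-oxoglutarate and ascorbate. Osteoblasts are known for a high rate of aerobic glycolysis.

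Of the 31 measured genes, 6 passed, and 5 of these were lower in AA cultures. Pfkp, Ndrg1, Slc2a1, Slc16a1 and Pdk4 fell, with log2 fold changes of -0.73 to -0.38, and Pfkfb4 rose by 1.00. Of all genes 3.85% were called lower and 4.07% higher, so 5 lower of 31 was above the background and 1 higher was near it. The members were chosen with earlier results of these data known, so these counts describe the list and are no test of it. Among genes above the median signal, where 6.35% were called lower and 6.75% higher, the counts were again 5 lower and 1 higher, of 26 members. The other 25 genes did not pass. Their log2 fold changes were mostly small and mostly negative: over all 31 genes 25 were negative and 6 positive, the median was -0.18, and that of all 18193 genes was -0.02. In 8 of the 31 genes every AA array lay below every control array in deposited signal, and in 1, Pfkfb4, every AA array lay above, where 15.3% and 12.6% of all genes did so. At an unadjusted p under 0.05, 12 members were lower and 1 higher, beside 12.9% and 10.7% of all genes. The calls depended on limma's prior variance following the signal: with moderation without that trend, and by the methods' t-test after adjustment, 0 members passed, and at an unadjusted p under 0.05 these gave 4 lower and 1 higher and 5 lower and 1 higher. In RNA of whole cultures, fewer cells that carry a transcript and less transcript per cell cannot be told apart.

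**Figure D1:**
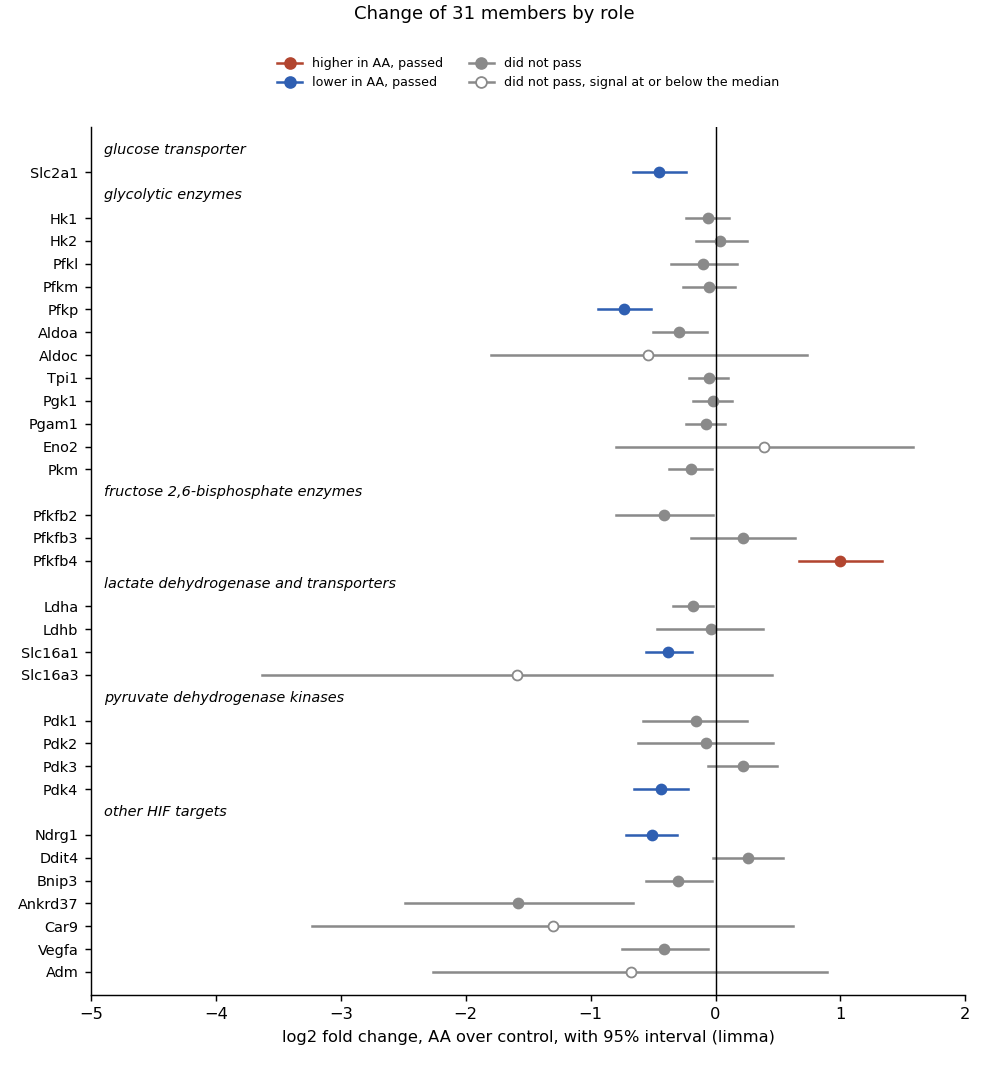
Log2 fold change, AA over control, of 31 genes in role order, with the 95% interval from limma as a line. Red marks the gene that passed as higher in AA (Pfkfb4, 1.00), blue the 5 that passed as lower, grey those that did not pass, and open circles the 5 genes with a mean signal at or below the median of all probe sets, whose intervals are the widest.

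The regions in front of the genes that passed are shown because HIF binds a core of 5 letters, spelled ACGTG or, with another first letter, GCGTG, close to the start of many of its targets. Each window is RefSeq's on GRCm38.p6, 250 bases before to 50 after the annotated start, 5′ to 3′ on the gene's strand, and capitals mark every copy of that core. Cores on the opposite strand appear as CACGT for the first spelling and as CACGC for the second. The E-box, CACGTG, which MYC and other factors bind, holds the first spelling on both strands, so the motifs overlap. The window of Pfkfb4, the one gene that rose, lies at chr9:108991652-108991951 (plus strand), that of Pfkp at chr13:6648722-6649021 (minus strand), that of Slc2a1 at chr4:119108495-119108794 (plus strand) and that of Slc16a1 at chr3:104638414-104638713 (plus strand).
Pfkfb4: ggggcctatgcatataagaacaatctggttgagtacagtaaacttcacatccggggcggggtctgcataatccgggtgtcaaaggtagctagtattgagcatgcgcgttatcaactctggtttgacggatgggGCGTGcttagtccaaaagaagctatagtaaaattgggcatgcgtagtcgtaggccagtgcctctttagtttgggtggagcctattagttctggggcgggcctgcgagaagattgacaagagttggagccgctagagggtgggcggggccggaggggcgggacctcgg
Pfkp: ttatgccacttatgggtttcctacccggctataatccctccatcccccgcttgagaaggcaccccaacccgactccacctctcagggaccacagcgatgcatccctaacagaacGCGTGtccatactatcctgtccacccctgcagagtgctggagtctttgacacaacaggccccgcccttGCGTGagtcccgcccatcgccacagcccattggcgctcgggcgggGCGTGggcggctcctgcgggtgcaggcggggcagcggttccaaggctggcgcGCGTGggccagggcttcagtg
Slc2a1: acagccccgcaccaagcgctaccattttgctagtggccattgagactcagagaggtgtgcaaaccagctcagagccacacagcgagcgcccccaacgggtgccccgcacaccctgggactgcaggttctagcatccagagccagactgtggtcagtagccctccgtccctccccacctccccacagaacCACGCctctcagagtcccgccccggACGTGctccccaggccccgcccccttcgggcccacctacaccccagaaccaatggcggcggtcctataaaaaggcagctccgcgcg
Slc16a1: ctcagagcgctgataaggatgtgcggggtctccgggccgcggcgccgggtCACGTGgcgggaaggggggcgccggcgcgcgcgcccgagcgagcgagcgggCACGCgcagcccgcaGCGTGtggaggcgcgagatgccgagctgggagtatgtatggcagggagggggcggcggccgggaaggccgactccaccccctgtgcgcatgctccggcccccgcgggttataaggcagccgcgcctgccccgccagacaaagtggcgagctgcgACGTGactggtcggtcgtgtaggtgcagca
The core stood in 1 place in the window of Pfkfb4, in 4 in that of Pfkp, in 2 in that of Slc2a1 and in 4 in that of Slc16a1, 1 of them the E-box. The window of Pdk4 at chr6:5496229-5496528 (minus strand) held 1, and no window was listed for Ndrg1. Of the 33 members with a window, 30 held the core in at least 1 window, against 46.7% of all 27025 genes with a window. By window the count was 40 of 53 members' windows, beside 43.8% of all windows. It was found for 23 of 25 genes that did not pass, for 4 of 4 that fell and for the gene that rose, so its presence did not set the called genes apart from the rest of the list. The 3 genes without it were Eno2, Tpi1 and Gpi1. A match describes letters and not binding.

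Slc2a1 encodes GLUT1, the glucose transporter of most growing cells. Its signals were 261, 294 and 284 in AA cultures, against 341, 442 and 395 in control cultures. The groups did not overlap, and the highest AA array, replicate 2, lay below the lowest control array, replicate 1. The log2 fold change was -0.45 (SE 0.09, adjusted p = 0.0301), a fold of 0.734 with a 95% interval of 0.634 to 0.848. Both other probe sets of the gene were lower in AA cultures: 1426599_a_at passed at -0.58 (adjusted p = 0.0207), and 1426600_at was at -0.54 (adjusted p = 0.0533), with no overlap between the groups in either. The call on the brightest probe set was lost without replicate 2 in both groups (adjusted p = 0.220), without replicate 3 (0.0594) and with no replicate block (0.0527), and passed without replicate 1 (0.0369).

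Among the glycolytic enzymes, Pfkp alone passed of 12 measured. Pfkp is the platelet isoform of phosphofructokinase, the step that commits sugar to glycolysis. It gave 348, 373 and 415 in AA cultures, against 561, 712 and 653 in control cultures, so that every AA array was well under every control array. The mean was 379 ± 33.5 (SD, n = 3) in AA cultures and 642 ± 75.8 (SD, n = 3) in control cultures. Pfkp thus fell by 0.73 on the log2 scale (SE 0.09, adjusted p = 0.00407), and it passed with each of the 3 pairs and each of the 6 arrays left out, at adjusted p of 0.0031 to 0.0429. The 2 dimmer probe sets of Pfkp, with mean signals of 22.4 and 10.7, were at 0.47 and -0.12 and did not pass, and the mean over the 3 probe sets gave -0.13 (adjusted p = 0.871).

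The other phosphofructokinase isoforms did not pass. Pfkm, the muscle isoform, gave 266, 289 and 294 in AA cultures, against 291, 318 and 290 in control cultures. Pfkl, the liver isoform, gave 185, 156 and 141 in AA cultures, against 180, 178 and 167 in control cultures. Their groups overlapped, and their log2 fold changes of -0.05 and -0.10 had 95% intervals of -0.26 to 0.16 and -0.36 to 0.17. The difference between isoforms was not tested.

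Hk1, Hk2, Tpi1, Pgk1 and Pgam1 did not pass, and their log2 fold changes lay between -0.08 and 0.04. Hexokinase phosphorylates glucose on entry, and Hk1 and Hk2 had log2 fold changes of -0.06 and 0.04 with intervals of -0.24 to 0.11 and -0.16 to 0.25. Triose phosphate isomerase (Tpi1), phosphoglycerate kinase (Pgk1) and phosphoglycerate mutase (Pgam1), which lie in the middle of the pathway, averaged 3391 ± 179, 2530 ± 172 and 2294 ± 90.1 in AA cultures, against 3306 ± 154, 2463 ± 81.9 and 2320 ± 28.9 in control cultures (SD, n = 3 each). Their log2 fold changes were -0.05, -0.02 and -0.08, and none of the 3 intervals went below -0.24 or above 0.13. For these 5 genes the groups overlapped on deposited signals. Dimmer probe sets strayed further without passing, at 0.69 for Hk1 and -0.46 for Pgk1.

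Aldolase A and pyruvate kinase were somewhat lower without passing. Aldoa, which splits fructose 1,6-bisphosphate, gave 2432, 1956 and 1926 in AA cultures, against 2347, 2389 and 2624 in control cultures. On deposited signals AA replicate 1 lay among the control arrays and the other 2 AA arrays below them. After quantile normalization all AA arrays lay below, with AA replicate 1 at 11.18 and the lowest control array at 11.21. The log2 fold change was -0.29 (95% interval -0.50 to -0.07, adjusted p = 0.142), the 4 other probe sets of Aldoa were at -0.30 to -0.04, and without replicate 1 the gene passed (-0.42, adjusted p = 0.0351). Pkm, which makes pyruvate, gave 1274, 1168 and 1205 in AA cultures, against 1375, 1409 and 1343 in control cultures, with no overlap (log2 fold change -0.20, 95% interval -0.37 to -0.03, adjusted p = 0.207). Aldoc and Eno2, the isozymes of brain, had signals of 3.88 to 14.4 and 6.95 to 10.5 in AA cultures, against 10.4 to 16.4 and 3.80 to 8.09 in control cultures, and their mean signals of 11.9 and 7.59 lay below the median of 16.0. Their intervals, -1.80 to 0.73 and -0.80 to 1.58, held both signs.

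The bifunctional Pfkfb enzymes make and remove fructose 2,6-bisphosphate, the strongest activator of phosphofructokinase, and only Pfkfb4 passed. Its signals were 193, 153 and 149 in AA cultures, against 79.4, 80.4 and 89.8 in control cultures. Each AA array was above each control array by a wide margin, and AA replicate 1 was the highest. The mean was 165 ± 24.2 (SD, n = 3) in AA cultures and 83.2 ± 5.71 (SD, n = 3) in control cultures. The fold was 2.00 (95% interval 1.59 to 2.52, log2 fold change 1.00, SE 0.15, adjusted p = 0.00749), with all 3 pairs in the same direction, and it passed with each pair or array left out at adjusted p of 0.00229 to 0.0411. Pfkfb4 has 1 probe set on this array, 1456888_at.

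Its relatives differed in direction among themselves. Pfkfb3, the isozyme with the highest ratio of kinase to phosphatase activity and a HIF target, gave 89.7, 70.8 and 69.7 in AA cultures, against 56.4, 72.5 and 68.6 in control cultures. The groups overlapped (log2 fold change 0.22, 95% interval -0.20 to 0.64). Pfkfb2, the heart isozyme, gave 54.0, 54.0 and 49.7 in AA cultures, against 63.1, 69.8 and 78.7 in control cultures. These groups did not overlap, but the gene did not pass (-0.41, adjusted p = 0.256), and 3 dimmer probe sets of Pfkfb2 were at 0.43, -0.30 and 0.53.

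**Figure D2:**
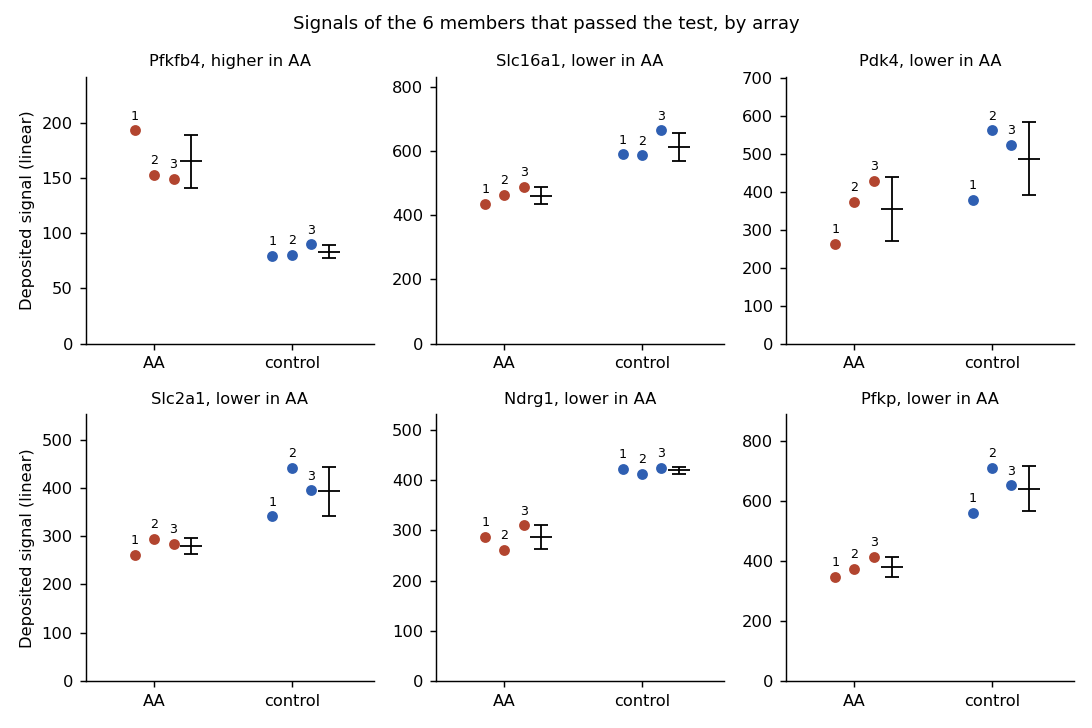
Deposited linear signals of the 6 genes that passed, 1 panel a gene, with AA arrays (red) left of control arrays (blue), each numbered by replicate, and the mean ± SD of 3 arrays as a black bar. In every panel but that of Pdk4 the 2 groups lie apart, and the AA arrays are above the control arrays only for Pfkfb4.

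At the end of the pathway, the lactate transporter Slc16a1 was lower and the lactate dehydrogenases did not pass. Slc16a1, the monocarboxylate transporter MCT1, gave 434, 463 and 487 in AA cultures, against 589, 586 and 664 in control cultures. The groups were separate, and control replicate 3 was the highest. The log2 fold change was -0.38 (SE 0.08, adjusted p = 0.0352), in the same direction in all 3 pairs, but the gene passed with none of the pairs or arrays left out (adjusted p of 0.0533 to 0.148). Ldha, which turns pyruvate to lactate, was the brightest of the 31 genes with 3915, 3713 and 3383 in AA cultures, against 3877, 3690 and 4106 in control cultures. The groups overlapped on deposited signals, while after quantile normalization all AA arrays lay below all control arrays. The log2 fold change was -0.18 (95% interval -0.34 to -0.02, adjusted p = 0.225).

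Ldhb, the heart form, ranged from 48.8 to 78.3 in AA cultures and from 54.3 to 67.0 in control cultures, with a log2 fold change of -0.04 on the brightest probe set and -0.74 to -0.30 on 3 dimmer ones, none of which passed. Slc16a3 is MCT4, the lactate exporter of glycolytic cells and a HIF target. It was dim, at 1.62, 9.83 and 0.752 in AA cultures, against 6.00, 5.61 and 8.41 in control cultures. Its AA arrays lay on both sides of the control arrays, and the interval of the log2 fold change ran from -3.63 to 0.45.

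Pyruvate dehydrogenase kinases switch off the complex that passes pyruvate to mitochondria, and of these Pdk4 alone passed. Pdk4, the isoform induced by fasting and fatty acids, gave 263, 372 and 428 in AA cultures, against 378, 561 and 522 in control cultures. The groups overlapped, since AA replicate 3 was above control replicate 1, while within each replicate number the AA array was lower (-0.48, -0.56 and -0.26 on the log2 scale). The log2 fold change was -0.44 (SE 0.09, adjusted p = 0.0371). This call rested on the replicate number as a block and was lost with no replicate block (adjusted p = 0.274). It was also lost without replicate 1 (0.0928) and without replicate 2 (0.250).

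The HIF-responsive kinase Pdk1 gave 115, 71.4 and 82.4 in AA cultures, against 91.3, 97.1 and 110 in control cultures. AA replicate 1 was the highest of the 6 arrays and the other 2 AA arrays the lowest. Its log2 fold change was -0.16 (95% interval -0.58 to 0.25), and 3 other probe sets were at -0.33 to 0.19. Pdk3, also known as a HIF target, was at 0.22 (-0.06 to 0.49) and Pdk2 at -0.08 (-0.62 to 0.46), both with overlapping groups. Of 10 further genes of pyruvate entry, 1 passed: Pdp1, the phosphatase that reverses the kinases, gave 293, 338 and 341 in AA cultures, against 458, 479 and 408 in control cultures (log2 fold change -0.44, adjusted p = 0.0428). It lost the call without replicate 1 (0.145) or 2 (0.217).

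Among the other HIF targets, Ndrg1 passed of 7 measured. Ndrg1, a stress- and differentiation-linked gene that hypoxia induces strongly, gave 287, 262 and 310 in AA cultures, against 422, 413 and 425 in control cultures. All AA arrays were under all control arrays, and the control arrays lay within a narrow range. The probe set, 1456174_x_at, is of a kind whose probes may also match other transcripts. The brightest probe sets of Aldoa, Pgk1 and Adm are of the same kind. The log2 fold change was -0.51 (SE 0.09, adjusted p = 0.0153), a fold of 0.700 with a 95% interval of 0.607 to 0.806. Of its 4 other probe sets, 1420760_s_at and 1450976_at passed at -0.63 and -0.52 (adjusted p = 0.0109 and 0.0460), and the 2 dimmest were at -0.09 and 0.24. The call was lost without replicate 2 in both groups (adjusted p = 0.134) and where the 5 probe sets were averaged (-0.30, adjusted p = 0.189).

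Ankrd37, an ankyrin repeat gene known as a direct HIF target, had the largest difference among the members above the median signal but did not pass. It gave 27.3, 13.0 and 5.82 in AA cultures, against 42.4, 34.0 and 37.4 in control cultures. The AA arrays were all lower and spread widely, with AA replicate 1 nearest to the control arrays. The log2 fold change was -1.58 (95% interval -2.49 to -0.66, adjusted p = 0.0642). It passed when the test was limited to probe sets above the median signal (adjusted p = 0.0336). Its mean signal of 26.6 met that limit of 16.0 through the control cultures (mean 37.9), while the AA mean was 15.3. That pass is therefore no support for the fall. With 50 added to every signal the log2 fold change was -0.44.

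Vegfa, the growth factor of blood vessels, gave 83.6, 80.8 and 98.3 in AA cultures, against 103, 139 and 112 in control cultures. The groups did not overlap, and the gene did not pass (log2 fold change -0.41, 95% interval -0.75 to -0.06, adjusted p = 0.195). A second probe set of Vegfa was at -0.09. Bnip3, a mitophagy receptor, gave 610, 411 and 376 in AA cultures, against 608, 559 and 548 in control cultures. On deposited signals AA replicate 1 was level with or above the control arrays, as with Aldoa and Pdk1, and the other AA arrays were lower. The log2 fold change was -0.30 (95% interval -0.56 to -0.03, adjusted p = 0.224), or -0.46 without replicate 1 (adjusted p = 0.0439).

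Ddit4, an inhibitor of mTORC1 under energy stress, was the one measured gene of this group with a positive value. It gave 842, 702 and 845 in AA cultures, against 886, 602 and 564 in control cultures. Control replicate 1 was the highest of the 6 arrays, the groups overlapped, and the log2 fold change was 0.26 (95% interval -0.02 to 0.54, adjusted p = 0.318). Car9, the carbonic anhydrase that acidifies the surroundings of hypoxic cells, and the vasodilator peptide Adm were dim, at 0.882 to 4.72 and 1.77 to 9.73 in AA cultures, against 3.11 to 7.85 and 6.84 to 10.8 in control cultures. Both had overlapping groups.

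**Figure D3:**
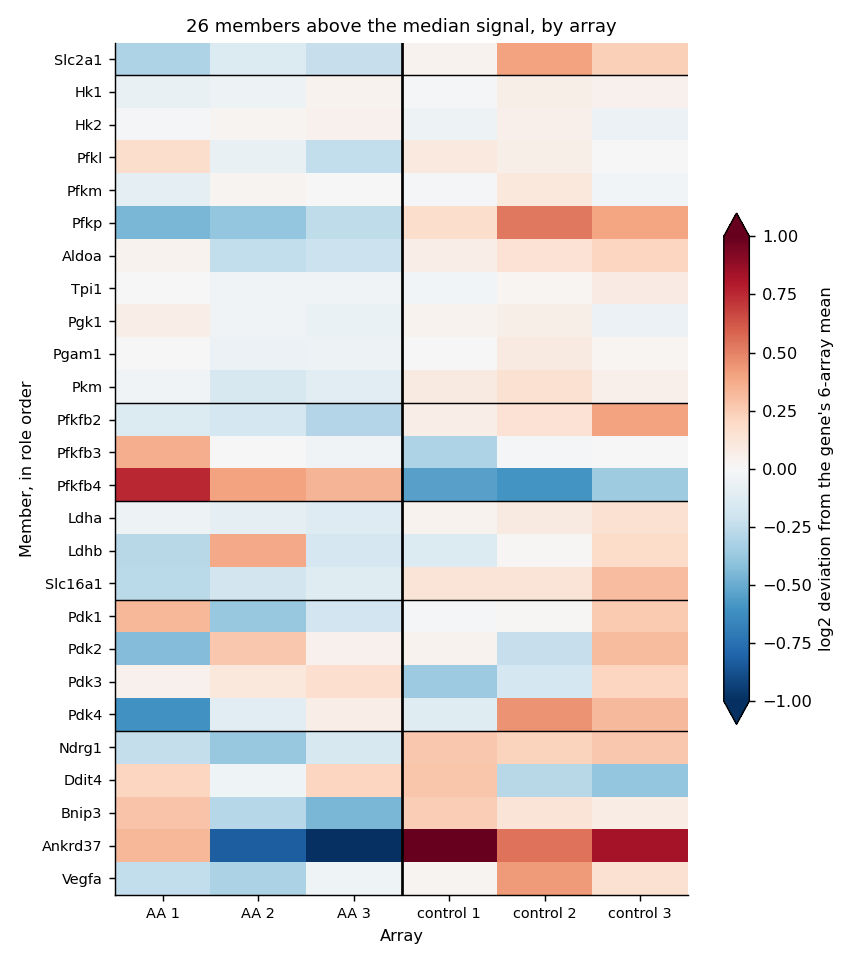
Deviation of each array from the gene's mean over 6 arrays, on quantile-normalized log2 signals, for the 26 genes above the median signal, with AA arrays left of control arrays and lines between the roles. The glycolytic enzymes other than Pfkp, Pfkl and Aldoa stay pale, Pfkfb4 is red on all 3 AA arrays, and Ankrd37 is darkest, going past the end of the colour scale on AA replicate 3.

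Set side by side, the glycolytic enzymes had a median nearer to 0 than the other HIF targets among the members. The median log2 fold change was -0.51 over the 7 other HIF targets, with 0 higher and 1 lower. It was -0.07 over the 12 glycolytic enzymes, with 0 higher and 1 lower, and -0.02 over all genes. A wider list of 38 further HIF targets, given below, had a median of -0.12. Of these 6 were higher and 3 lower, where 4.07% and 3.85% of all genes were. At an unadjusted p under 0.05 by limma, 4 of the 7 other HIF targets and 3 of the 12 enzymes were lower and none was higher. Of all genes 12.9% were lower and 10.7% higher at that level. Without the trend 2 of the 7 and 1 of the 12 were lower, and by the methods' t-test 1 of the 7 and 1 of the 12. These fits gave 1135 and 1513 of all 18193 genes as lower. Over the members above the median signal the medians were -0.41 for 5 other HIF targets and -0.07 for 10 enzymes. The 5 include Ankrd37, which met the signal limit through its control arrays (mean 37.9, against 15.3 in AA cultures). The filtered median is therefore no support for the gap. Within each pair of replicates the median of the other HIF targets was -0.07, -0.60 and -0.53 for replicates 1, 2 and 3, and that of the enzymes 0.01, -0.10 and -0.14, so the gap was small in replicate 1 and larger in the other 2 pairs. The difference between the groups was not tested, and each held 1 gene that passed.

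AA replicate 1 was the AA array on which these genes were most often highest. The count was made on quantile-normalized log2 signals. Of the 26 members above the median signal, 14 were highest among the AA arrays on AA replicate 1, 4 on replicate 2 and 8 on replicate 3. Of all 10837 such genes 39.0%, 27.2% and 33.8% were. The median deviation from the gene's mean was taken over the 5 other HIF targets above the median signal, Ankrd37 among them through its control arrays. It was 0.21 on AA replicate 1, against -0.32 and -0.16 on the other AA arrays. On the control arrays it was 0.27, 0.22 and 0.16. Over the 10 enzymes it lay between -0.06 and 0.07 on every array. With no replicate block and without control replicate 3, the array with the highest Gapdh ratio, Pfkp (-0.72, adjusted p = 0.0235), Ndrg1 (-0.51, 0.0367) and Pfkfb4 (1.07, 0.0124) passed, while Slc2a1 (-0.44, 0.121), Slc16a1 (-0.32, 0.0971) and Pdk4 (-0.38, 0.477) did not. The part of the proliferation genes and of the markers Csf1r and Col2a1, whose values over all 6 arrays are given with the markers, was not tested.

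Over the 64 probe sets of the measured members, 15 genes had 1 probe set and 16 had several. Of the 33 probe sets that were not the brightest of their gene, 3 were lower, those of Slc2a1 and Ndrg1 above, 30 did not pass and 0 were higher. The lowest log2 fold changes, -1.59 for Slc16a3 and -1.58 for Ankrd37, stood at mean signals of 5.37 and 26.6.

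**Figure D4:**
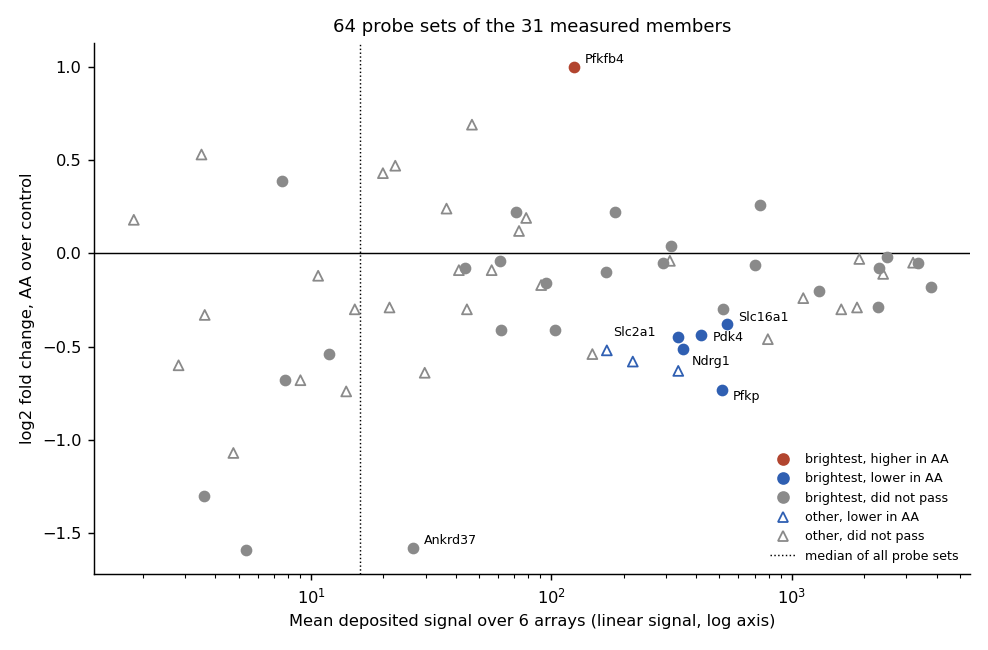
Log2 fold change, AA over control, of 64 probe sets against their mean deposited signal over 6 arrays (log axis), with filled circles for the brightest probe set of each gene and open triangles for the others. The 9 probe sets that passed have signals of 124 to 537, and the dotted line marks the median of all probe sets at 16.0.

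Genes near these pathways were counted from further lists. Of 23 other genes of glucose entry, glycolysis and its reversal, 1 passed: Fbp1, a fructose 1,6-bisphosphatase of gluconeogenesis, gave 62.6, 40.5 and 48.8 in AA cultures, against 25.3, 18.1 and 22.2 in control cultures (log2 fold change 1.20, adjusted p = 0.0172). Its groups were separate, and the call was lost without replicate 1 (0.0603) or 2 (0.0946). The list's median was 0.13, and 12 of the 23 lay above the median signal. In the pentose phosphate pathway, which branches off at glucose 6-phosphate, 1 of 6 genes passed: Taldo1, the transaldolase, gave 679, 674 and 705 in AA cultures, against 497, 503 and 609 in control cultures (log2 fold change 0.39, adjusted p = 0.0420). With median centring Taldo1 no longer passed (adjusted p = 0.212). Of 9 glycogen genes 0 passed by limma, with 2 lower at an unadjusted p under 0.05 and 1 lower by the methods' t-test at that level.

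Of 38 further HIF targets on a wider list, 6 were higher, 3 were lower and 29 did not pass, with a median of -0.12, where 4.07% of all genes were called higher and 3.85% lower. The strongest rises by p were in P4ha2, a collagen prolyl 4-hydroxylase subunit, and Lox, the lysyl oxidase that crosslinks collagen. P4ha2 gave 1114, 738 and 734 in AA cultures, against 442, 382 and 376 in control cultures (log2 fold change 1.10, adjusted p = 0.000897). Lox gave 5759, 5029 and 4167 in AA cultures, against 3061, 2743 and 2715 in control cultures (0.72, adjusted p = 0.00105). Both had AA arrays well above the control arrays, and in both AA replicate 1 was the highest. The circadian repressor Bhlhe40 (0.71, adjusted p = 0.0131) and the selenium-binding protein gene Selenbp1 (1.37, adjusted p = 0.0185) also rose. Selenbp1 did not pass without replicate 1 (0.0506) or 2 (0.0959), nor Bhlhe40 with no block and without control replicate 2 (0.0760).

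The 3 falls of that list were in Cited2, Ero1a and Tfrc. Cited2, a HIF-induced protein that competes with HIF for its coactivator, gave 860, 983 and 972 in AA cultures, against 1369, 1612 and 1849 in control cultures. All AA arrays were below all control arrays (log2 fold change -0.78, adjusted p = 0.00157). Ero1a, the oxidase of disulfide formation in the endoplasmic reticulum, and Tfrc, the transferrin receptor, were at -0.65 and -0.61 (adjusted p = 0.0116 and 0.0184). Ero1a did not pass without replicate 2 (0.102), and Tfrc was at -0.10 over the mean of its probe sets (0.918).

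A list of HIF subunits, HIF hydroxylases and Vhl held 10 genes, of which Egln1 and Egln3 were also on the wider list. Of the 10, 0 passed by limma. At an unadjusted p under 0.05, 2 were higher and 3, Vhl among them, were lower, where 10.7% and 12.9% of all genes were. By the methods' t-test at that level 0 were higher and 1 lower, beside 1357 and 1513 of all 18193 genes. The largest changes were in the subunit genes Epas1 and Arnt2, both dim, with mean signals of 13.4 and 11.9. Epas1 was at 1.73 (95% interval 0.51 to 2.95, adjusted p = 0.122), with all AA arrays above all control arrays. Arnt2 was at -1.64 (-2.69 to -0.60, adjusted p = 0.0854), with overlapping groups. Hif1a, the main alpha subunit, gave 2191, 2024 and 1857 in AA cultures, against 1834, 1766 and 2081 in control cultures. Its groups overlapped (log2 fold change 0.05, 95% interval -0.15 to 0.24), and RNA says nothing of the protein, which oxygen controls by its breakdown. Egln1, the main HIF prolyl hydroxylase, was at -0.18 (-0.39 to 0.03), and Egln3, itself a HIF target, was near the median signal at 11.8 to 16.7 in AA cultures, against 15.4 to 34.1 in control cultures (-0.75, 95% interval -1.46 to -0.04, adjusted p = 0.252).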

How the data were processed

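Total RNA of 3 AA and 3 control cultures was hybridized to Affymetrix Mouse Genome 430 2.0 arrays. As deposited, the values are linear signal intensities per probe set, made by the authors with MAS5 per the submitters' processing notes (version and genome build not given in the sources used here). Each array had been scaled to a mean of 150 after 2% of values were left off at each end. GC-RMA and quantile normalization in Partek, which the study's methods name, are not carried by these intensities, and no detection calls were used here. Of 45101 probe sets, 64 controls were set aside and 45037 tested. In the platform annotation 34945 of these name 1 gene, 932 several and 9160 none. RefSeq symbols (GRCm38.p6) changed 0 names.

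Signals were log2-transformed, quantile-normalized and fitted with limma 3.58.1 in R 4.3.3, with the prior variance following the signal and the replicate number as a block, since the methods name paired tests. The fit had 2 residual and 6.18 prior degrees of freedom. The Benjamini-Hochberg adjustment took in every tested probe set, a gene passed at an adjusted p under 0.05, and intervals are at 95%. The precision is limited by 3 arrays a group. All members are named. Of each further list at most 4 genes a direction are named, those with the smallest p among genes that passed. The list of HIF subunits, HIF hydroxylases and Vhl is an exception, since Hif1a, Egln1, Egln3, Epas1, Arnt2 and Vhl are named and did not pass. Members and lists were chosen with earlier results of these data known. The alternatives were no block, deposited scaling, median centring, 50 added to every signal, only probe sets above the median signal, no trend, the methods' t-test (paired, per probe set), an unadjusted p under 0.01 with a fold of at least 1.5, other rules for a gene's probe sets, and each pair or array left out. The fit was tested on simulated data: it recovered the simulated fold sizes, and the share of false calls was near the threshold where the spread was drawn from limma's prior but above it where each probe set kept its estimated spread, so adjusted p-values close to the threshold may be too small. Promoter windows are RefSeq's.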

Additional observations from a re-analysis of the deposited data

How the results depend on the processing

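The 6 calls among the members kept their direction under every alternative, but not all stayed past the threshold. Members lower in AA cultures, 5 as reported, were 3 with no replicate block (Ndrg1, Pfkp and Slc16a1), 2 with 50 added to every signal (Ndrg1 and Pfkp), 2 at an unadjusted p under 0.01 with a fold of at least 1.5 (Ankrd37 and Pfkp), and 2 where all probe sets of a gene were averaged (Pdk4 and Slc2a1). With moderation without the trend and by the methods' t-test, 0 members were higher and 0 lower, 0 glycolytic enzymes and 0 other HIF targets were lower, and 0 probe sets were higher and 0 lower over the whole array, where at an unadjusted p under 0.05 these fits gave 2587 higher and 2616 lower and 2612 higher and 2827 lower. With probe sets averaged in this way 0 glycolytic enzymes and 0 other HIF targets were lower. Other HIF targets lower were 2 with median centring and 2 among probe sets above the median signal, Ankrd37 being added. Ankrd37 met the signal limit through its control arrays, as its AA mean of 15.3 lay below the median signal. With 50 added to every signal 788 probe sets were higher and 655 lower, and the median log2 fold change of all members was -0.07. With a pair or an array left out, members higher ranged from 1 to 2, members lower from 1 to 6, glycolytic enzymes lower from 1 to 2, other HIF targets lower from 0 to 3 and higher from 0 to 1, probe sets higher from 381 to 1162 and lower from 339 to 960, and the median of all members from -0.23 to -0.08. The medians of the other HIF targets and of the glycolytic enzymes stayed at -0.61 to -0.27 and -0.13 to -0.04. The causes were not tested.

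The replicate numbers were shared by the labels and were not shown to pair the samples. Deviations of same-numbered arrays correlated at 0.188, 0.0307 and 0.101 over probe sets above the median signal and at 0.00369 to 0.0165 over all, and AA replicate 2 correlated better with control replicate 3 (0.0381) than with its own number. Fitting no replicate block gave 1089 higher and 1039 lower probe sets, and Slc2a1 (adjusted p = 0.0527) and Pdk4 (0.274) did not pass. Dim signals limited 5 members, those at or below the median signal of 16.0: Aldoc, Eno2, Slc16a3, Car9 and Adm. Ankrd37 was above it by its mean over all arrays but had an AA mean of 15.3.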

Other observations

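On quantile-normalized log2 signals, control replicate 2 was the highest control array for 7 of the 10 glycolytic enzymes above the median signal. The same held for 10 of the 26 members above it, where 25.3% of all 10837 such genes were highest there. For the other HIF targets above the median signal it was the highest control array for 1 of 5. On deposited signals Hk1 was instead highest on control replicate 3 (733, against 728) and Pgk1 on control replicate 1 (2530, against 2488).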
